A study of Mus musculus with 56 samples.

Results

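The kidneys of mice on daytime-restricted feeding (DRF) were compared at zeitgeber times ZT4 and ZT16, where ZT counts the hours after lights on. ZT4 lies in the light phase, in which DRF mice had food, and ZT16 lies in the dark phase, in which mice are active and DRF mice had no food. The comparison rests on 8 of the 56 libraries of the series, 4 from DRF ZT4 and 4 from DRF ZT16, which were taken by their labelled regimen and time and not by any measured value. Each library was made from polyA RNA of a whole kidney, with 4 libraries per time as replicates. All mice were female C57BL/6J, 9 weeks old, kept under 12 h of light and 12 h of darkness, and they had been on their regimen for 7 days after 7 days of free feeding. The 20 libraries from the neighbouring DRF times, ZT0, ZT8, ZT12, ZT20 and ZT24, served to judge whether a gene stood high or low at ZT4 or ZT16. As the reference for clock time, 4 libraries each from ZT4 and ZT16 came from mice on nighttime-restricted feeding (NRF), which had food in the dark phase only. The hours at which food was given are not in the sources used here. In RNA from a whole organ, fewer cells of a type and less RNA per cell cannot be told apart.

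Heat shock genes encode molecular chaperones, proteins that help other proteins to fold and that are induced through the transcription factor HSF1 by heat and other loads on the proteome. A parallel set of chaperones resides in the endoplasmic reticulum (ER), and its genes are induced through ATF6 and XBP1 in the unfolded protein response, acting on promoter sequences known as ER stress response elements. Body temperature of mice rises with activity and with food intake, and cold-inducible RNA-binding proteins such as CIRBP follow body temperature in the opposite direction. The meal also acts through insulin and sterol-regulated factors, the fast through PPARA, FOXO factors and glucocorticoids, and the circadian clock through a loop in which BMAL1 and CLOCK drive the genes of their own repressors. The kidney takes part in these responses as a gluconeogenic organ and as a user of fatty acids as fuel.

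Levels are given in TPM, a transcript level corrected for gene length and depth, on a linear scale rebuilt from the deposited values, so that levels of different genes can be compared per length. The reads assigned to genes were 22.4 M to 24.3 M in the 8 libraries, and 559 to 887 of the 17027 genes in the table were at 0 in a library. The kidney label held in all 8 libraries, in which the summed level of 8 proximal tubule markers was 8286 to 9889.7 TPM. A pair of libraries stood apart from the other 6 in a principal component analysis, DRF ZT4 replicate 4 and DRF ZT16 replicate 1, along a component with 47.0% of the variance, while the component that separated the times held 31.4%. In these libraries the summed level of 8 urothelium markers, a list chosen after the values were seen, was 828 and 448 TPM, against 6.34 to 43.8 TPM in the other 6. The summed level of 6 collecting duct markers was 2461 and 1759.6 TPM, against 1247 to 1370.4 TPM. Of these markers Aqp2, Aqp3 and Fxyd4 were higher in both libraries than in the other 6, while Scnn1b, Scnn1g and Hsd11b2 were not. Counts that lead a result below are therefore also given without this pair.

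Stretches of promoter sequence from genes described below are shown first. The 250 bases before the RefSeq start site of a gene (GRCm38.p6) were searched on both strands for the ER stress response element, CCAAT and CCACG separated by 9 bases of any kind, and they held it in 14 of the 9798 tested genes with a promoter sequence, or 0.143%. Of these 14 genes, 9 peaked at both ZT4 and ZT16 by the definition given below, and all 9 belong to the list of ER chaperones and unfolded protein response genes, where 9 of the 23 members with a promoter sequence held the element. Without the pair of libraries that stood apart 4 of the 9 were shared peaks, Hspa5, Derl3, Pdia6 and Syvn1, while Creld2, Calr, Canx, Dnajc3 and Hsp90b1 were not. The other 5 genes with the element were Acacb, Alg12, Hnrnpa3, Pan2 and Zfp57, which were named after their values were seen. The 5 members below had the largest smaller rise over the neighbouring times among the 9, and their capitals mark the element, which Creld2, Derl3 and Hsp90b1 carry as its reverse complement.
Creld2: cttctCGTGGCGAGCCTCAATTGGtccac
Hspa5: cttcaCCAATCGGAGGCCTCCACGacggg
Derl3: tctacCGTGGGACTTCCCCATTGGctagc
Syvn1: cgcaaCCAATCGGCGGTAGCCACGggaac
Hsp90b1: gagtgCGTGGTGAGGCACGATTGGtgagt

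These stretches lie before the start site and outside the transcript, at chr15:88819515-88819543 on the plus strand for Creld2, chr2:34772020-34772048 on the plus strand for Hspa5, chr10:75893237-75893265 on the plus strand for Derl3, chr19:6046527-6046555 on the plus strand for Syvn1 and chr10:86705528-86705556 on the minus strand for Hsp90b1. The Hspa5 element ends 47 bases before the start site and the Creld2 element 108 bases before it. Cytosolic heat shock genes carry a different motif, inverted repeats of the pentamer bound by HSF1, of which the cores GAANNTTC and TTCNNGAA were searched in the same window. GAANNTTC occurred before 6 of the 21 cytosolic heat shock genes with a promoter sequence, or 28.6%, against 6.21% of all tested genes, and before none of the 23 ER genes. TTCNNGAA occurred before 2 of the 21, against 7.10% of all. Hspa1a, Hspa1b and Hspb1 held GAANNTTC, and Dnajb4 and Hsph1 held TTCNNGAA, but none of these was a shared peak. The 3 cytosolic heat shock genes that held GAANNTTC and were shared peaks are shown with the motif in capitals.
Dnaja1: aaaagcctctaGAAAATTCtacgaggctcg
Dnaja4: gcctcctggcgGAACCTTCcgccggcgccg
Fkbp4: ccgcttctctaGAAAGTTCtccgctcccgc

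They lie at chr4:40722333-40722362 on the plus strand, chr9:54699496-54699525 on the plus strand and chr6:128438789-128438818 on the minus strand in that order. Among the 133 shared peaks with a promoter sequence, 9 held the ER element, or 6.77%, and 11 held GAANNTTC, or 8.27%. Of all tested genes 0.143% held the ER element and 6.21% GAANNTTC. Among the 711 shared troughs GAANNTTC occurred in 45, or 6.33%, near the share of all. The ER element occurred in 0 of these, but it is too rare over all genes for this to set the troughs apart. A match is a run of letters, and binding was not measured here.

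Most of the transcriptome was similar at both times. Of 12429 genes with a mean level of at least 1 TPM, 3010 differed between ZT4 and ZT16 at an adjusted p under 0.05, or 24.2%, with 1949 higher at ZT4 (15.7%) and 1061 lower (8.54%). All adjusted p-values here are from limma on log2(TPM + 1) with Benjamini-Hochberg adjustment over all tested genes, and fold changes are on that scale, which understates the change of low genes. The share of called genes that were higher at ZT4 was 64.8%, but it was 53.2% on log2(CPM + 1) and 48.2% where the deposited values were taken as linear. Differences were mostly small, since 425 of the called genes reached 1.5-fold and 91 reached 2-fold, 25 of them higher and 66 lower at ZT4. The values of the 4 mice per time did not overlap in 3012 genes, or 24.2%. A gene was called equal where the 95% interval of the difference lay within 1.5-fold either way, and 9919 genes were equal by this definition, or 79.8%, including 1962 that also differed by the test. A further 1462 genes were neither equal nor different, so their state is unresolved at this spread.

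Equality alone does not separate a flat gene from one that peaks at both times, so each time was also compared with its neighbours, ZT4 with ZT0, ZT8 and ZT24, and ZT16 with ZT12 and ZT20. The ZT4 level was above its neighbours in 1275 genes (10.3%) and below in 2431 (19.6%), and the ZT16 level was above in 656 (5.28%) and below in 2332 (18.8%). Genes that stood above the neighbours at both times and were equal at ZT4 and ZT16 are called shared peaks, and there were 171 of them, or 1.38%. The corresponding shared troughs numbered 892, or 7.18%. These counts depend on the scaling, since median-of-ratios size factors gave 441 peaks and 501 troughs, and these included 169 of the 171 peaks but 500 of the 892 troughs. Without the pair of libraries that stood apart there were 122 shared peaks, 115 of them the same genes, and 871 shared troughs, 712 of them the same genes. In 115 genes ZT4 stood above and ZT16 below its neighbours, and in 132 genes the reverse held. The median rise of the shared peaks was 0.33 at ZT4 and 0.28 at ZT16 on the log2 scale, and the plot of heights over the neighbours shows both.

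**Figure D1:**
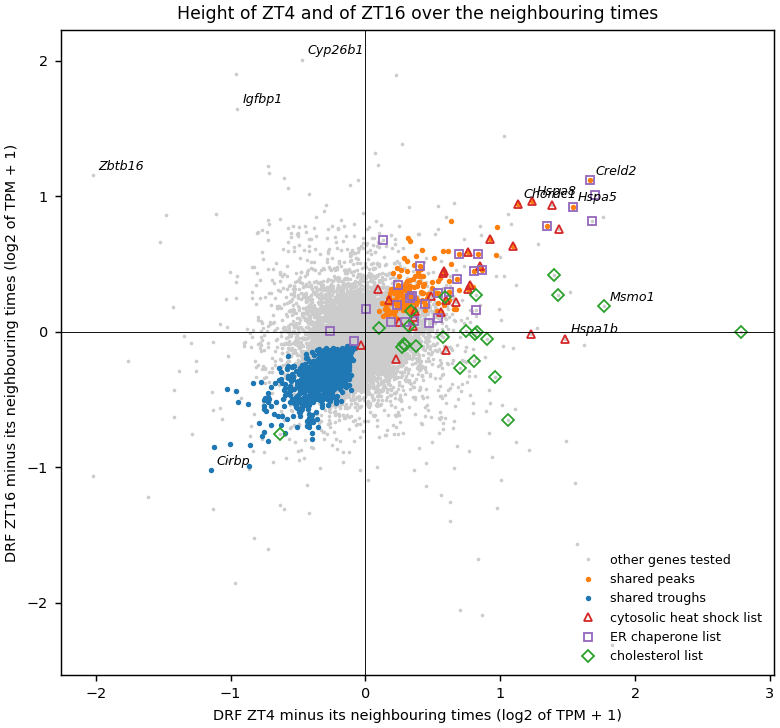
Each point is 1 tested gene, with the DRF ZT4 level minus its neighbouring times on the horizontal axis and the DRF ZT16 level minus its neighbouring times on the vertical axis, both as log2(TPM + 1). Cytosolic heat shock genes and ER chaperones extend to the upper right, Cirbp lies at the lower left, and Msmo1 lies to the right of 0 on the horizontal axis.

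Cytosolic and ER chaperone genes made up 29 of the 36 shared peaks that belonged to a gene list. Of 27 tested members of the cytosolic heat shock list, 21 stood above the neighbours at ZT4, 16 at ZT16 and 15 at both. Over all genes these shares were 10.3%, 5.28% and 1.54%. Of the 27 members 13 were shared peaks, against 1.38% of all genes. Without the pair of libraries that stood apart, 11 were shared peaks. The median rise over the neighbours in this list was 0.60 at ZT4 and 0.26 at ZT16, against -0.04 and -0.06 over all genes. Between the times themselves, 6 members were higher at ZT4, 1 was lower, the HSP70-interacting cochaperone St13 (1.21-fold, adjusted p = 0.0315), and 21 were equal, with a median difference of 0.17 on the log2 scale against 0.02 over all genes. Of all genes 15.7% were higher, 8.54% lower and 79.8% equal.

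Hspa8, at chr9:40800984-40810087 (GRCm38), encodes the constitutive cytosolic HSP70 and was by level the leading member. It was measured at 4792, 4909, 4408 and 4430.0 TPM in the 4 DRF ZT4 mice and at 4106, 3966, 4356 and 4087 TPM in the 4 DRF ZT16 mice. The ZT4 values all lay above the ZT16 values, but by so little that the difference, 0.17 ± 0.12 on the log2 scale (estimate ± SE), did not pass the test (adjusted p = 0.36) and its 95% interval of -0.08 to 0.41 stayed within 1.5-fold. Its means were 2053 ± 174 TPM at ZT0, 2080.5 ± 214 TPM at ZT8, 2738 ± 546 TPM at ZT12 and 1648 ± 59 TPM at ZT20 (mean ± SD, n = 4). Hspa8 was thus 2.35-fold above its neighbours at ZT4 (adjusted p = 6.42e-13) and 1.96-fold above them at ZT16 (adjusted p = 2.89e-09).

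Several co-chaperones had nearly the same level at both times. Chordc1, an HSP90-binding cochaperone, was measured at 50.4, 44.3, 39.8 and 48.8 TPM at ZT4 and at 52.8, 44.6, 40.8 and 44.9 TPM at ZT16. The groups overlapped fully, and the 95% interval of the difference was -0.21 to 0.22 on the log2 scale. Chordc1 stood 2.19-fold above the neighbours at ZT4 (adjusted p = 1.40e-13) and 1.93-fold at ZT16 (adjusted p = 2.17e-10). Ahsa1, the activator of the HSP90 ATPase, was at 93.2, 90.3, 81.3 and 88.3 TPM at ZT4 and 94.6, 90.2, 86.9 and 84.1 TPM at ZT16. These groups overlapped as well, while the neighbouring times lay between 47.9 ± 5.57 TPM at ZT0 and 64.2 ± 5.6 TPM at ZT12. Stip1, the adaptor between HSP70 and HSP90, was at 307, 292, 251 and 343 TPM at ZT4 and 352, 287, 264 and 266 TPM at ZT16, with no order between the groups and 1.89-fold and 1.61-fold above the neighbours. Its reads were assigned with a searched gene length, so its level is less certain than its differences.

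Other members peaked at both times but a little higher at the meal. Dnaja1, an HSP40 that delivers clients to HSP70, was at 230.0, 207, 172 and 201 TPM at ZT4 and 178, 165, 145 and 163 TPM at ZT16, and 3 of the 4 ZT4 values lay above every ZT16 value. The difference of 1.24-fold passed the test (adjusted p = 0.0144) and also stayed within the 1.5-fold bound. The Dnaja1 call was lost when ZT4 replicate 1 or ZT16 replicate 3 alone was left out (adjusted p of 0.0736 to 0.0826). Cacybp, a binding partner of calcyclin, was at 150.3, 131, 124 and 158 TPM and 125, 117, 99 and 114 TPM, and its difference of 1.23-fold passed (adjusted p = 0.0196) but had an adjusted p of 0.0579 without the pair of libraries. The Cacybp call was lost when ZT4 replicate 1 or 4 or ZT16 replicate 3 alone was left out (adjusted p of 0.0693 to 0.103). Fkbp4, an HSP90-bound immunophilin of steroid receptor complexes, was 1.17-fold higher at ZT4 (adjusted p = 0.00155), while Dnaja4 was equal at 39 ± 4.22 TPM and 40.8 ± 1.71 TPM. Both genes carry the GAANNTTC core shown above.

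The classical stress-inducible members did not share this pattern. Hspa1a and Hspa1b encode the inducible HSP70, are near-identical copies whose reads may be split between them, and did not give whole reads at their annotated length. Hspa1a was at 79.5, 49, 36.4 and 93.1 TPM at ZT4 and 50.2, 35, 35.5 and 35.5 TPM at ZT16, and Hspa1b at 119, 77.1, 53.1 and 225 TPM and 82.4, 47.5, 55.4 and 54.9 TPM. In both genes the highest value at each time came from the library that stood apart. Against the neighbours Hspa1a was 2.34-fold higher at ZT4 (adjusted p = 0.00121) but differed by -0.01 ± 0.31 on the log2 scale at ZT16 (adjusted p = 0.984). Hspa1b likewise stood 2.8-fold above the neighbours at ZT4 (adjusted p = 0.0091), which was lost without the pair of libraries (adjusted p = 0.077), and differed by -0.05 ± 0.46 at ZT16 (adjusted p = 0.957). The Hspa1a mean at ZT12 was 59.7 ± 24.4 TPM, against 64.5 ± 26.3 TPM at ZT4.

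Hsph1 and Hspb1 stood above the neighbours at both times without meeting the definition of equality. Hsph1, an HSP110 nucleotide exchange factor, was at 131, 111, 88.7 and 226 TPM at ZT4 and 132, 113, 108 and 107 TPM at ZT16, so that replicate 4 at ZT4 lay far above the rest. Hspb1, a small heat shock protein, was at 113, 86.2, 73.6 and 247 TPM and 191, 149, 131 and 106 TPM, with the same library highest. Without the pair of libraries the rise at ZT16 had an adjusted p of 0.0633 for Hsph1 and 0.121 for Hspb1, so the ZT16 rise of both genes lost its call. The difference between the times was then -0.005 for Hsph1 and -0.50 for Hspb1 on the log2 scale, against 0.19 and -0.28 with all libraries. The part of urothelium or medulla content in these values was not tested.

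**Figure D2:**
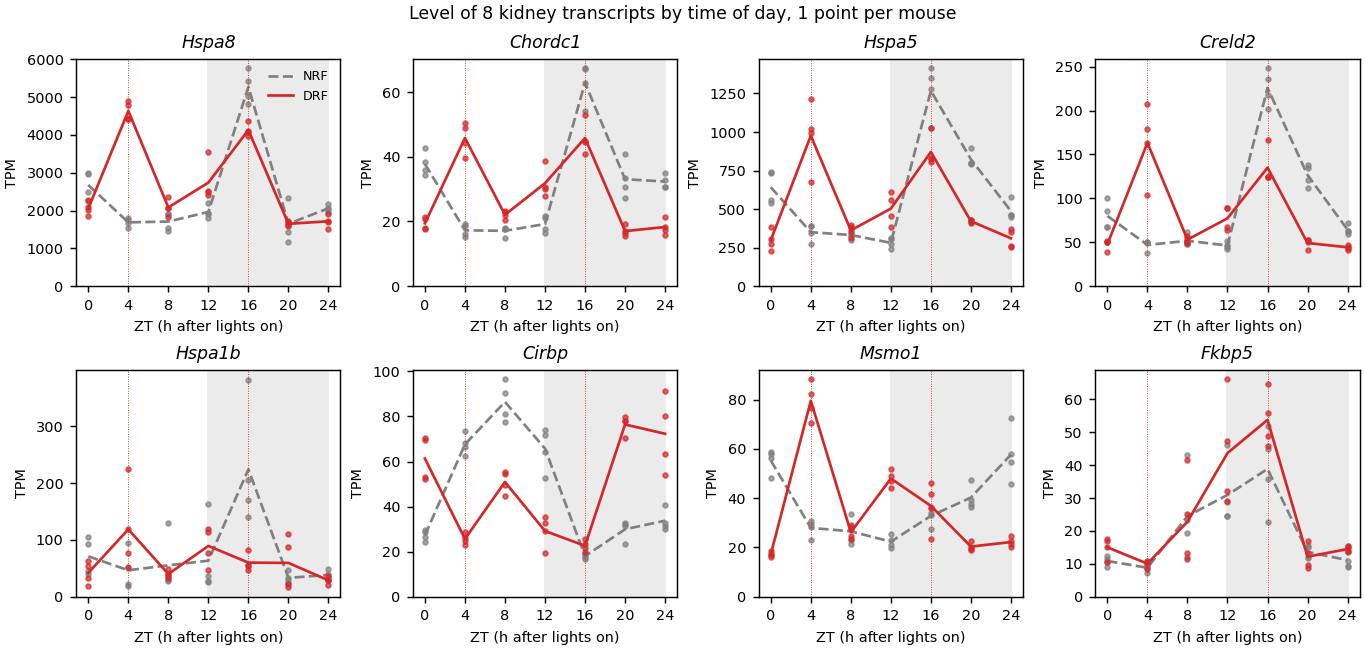
Levels in TPM over the day (ZT in h after lights on) in 8 genes, with points for single mice, lines for the group means under DRF (red) and NRF (grey, dashed) and shading for the dark phase. Under DRF Hspa8, Chordc1, Hspa5 and Creld2 show a peak at ZT4 and another at ZT16, Cirbp is low at both, Msmo1 is high at ZT4 and Fkbp5 at ZT16, and Hspa1b is high at ZT4 against its neighbours but not at ZT16.

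The ER chaperones also peaked at both times. Of 28 tested members, 24 stood above the neighbours at ZT4, 19 at ZT16 and 18 at both. Over all genes these shares were 10.3%, 5.28% and 1.54%. Of the 28 members 16 were shared peaks, against 1.38% of all genes, or 10 without the pair of libraries. Between the times 4 were higher at ZT4, 1 was lower and 23 were equal, against 15.7%, 8.54% and 79.8% of all genes. The median difference of the list was 0.11 on the log2 scale. The median rise was 0.50 at ZT4 and 0.29 at ZT16.

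Creld2, at chr15:88819646-88826683, encodes a secreted ER stress-inducible factor and had the largest rise at both times among the shared peaks. It was measured at 207, 179, 104 and 163 TPM at ZT4 and at 167, 124, 124 and 125 TPM at ZT16, against 52.9 ± 3.68 TPM at ZT8 and 49.1 ± 5.42 TPM at ZT20. The ZT4 mice spread more widely than the ZT16 mice and the groups overlapped. The rise over the neighbours was 3.18-fold at ZT4 (adjusted p = 9.19e-15) and 2.17-fold at ZT16 (adjusted p = 2.51e-09). Without the pair of libraries both rises kept their call (adjusted p = 8.12e-13 and 3.10e-07), but Creld2 no longer met the definition of equality and so left the shared peaks. Hspa5 encodes BiP, the HSP70 of the ER lumen, and was at 1216, 996, 673 and 1019.5 TPM at ZT4 and 1024, 828, 805 and 826 TPM at ZT16. The groups overlapped, with the same mouse lowest at ZT4 as for Creld2, replicate 3. Hspa5 stood 2.9-fold and 1.9-fold above its neighbours, and the 95% interval between the times was -0.17 to 0.44 on the log2 scale.

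Hyou1, an ER member of the HSP110 group, and Pdia4, a disulfide isomerase, followed the same course. Hyou1 was at 145, 119, 75.8 and 138 TPM at ZT4 and 119, 92.9, 93.1 and 90.9 TPM at ZT16, with overlapping groups, and 2.55-fold and 1.72-fold above the neighbours. Pdia4 was at 335, 297, 213 and 313 TPM and 295, 249, 248 and 224 TPM, again overlapping, and 1.78-fold and 1.49-fold above them. In the ZT4 group replicate 3 was the lowest mouse for all 4 of these genes. Manf and Sdf2l1, an ER-resident trophic factor and a partner of ER HSP40s, also stood above the neighbours at both times, but their differences of 0.41 ± 0.16 and 0.41 ± 0.19 on the log2 scale had intervals of 0.08 to 0.75 and 0.03 to 0.80, which passed neither the test (adjusted p = 0.0608 and 0.116) nor the equality bound.

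The remaining members with the ER stress response element had smaller rises. Hsp90b1, the HSP90 of the ER, stood at 834 ± 143 TPM at ZT4 and 813 ± 114 TPM at ZT16, 1.6-fold and 1.31-fold above its neighbours, but the second value lost the call without the pair of libraries (adjusted p = 0.0632). Syvn1, the ubiquitin ligase of ER-associated degradation, stood 1.82-fold and 1.37-fold above them, and Derl3, of the same pathway, 1.61-fold and 1.49-fold. The lectin chaperones Calr and Canx had smaller rises, with 1.45-fold and 1.22-fold for Calr and 1.18-fold and 1.14-fold for Canx. The ZT16 rises of Calr, Canx and Dnajc3 had adjusted p of 0.0632, 0.0779 and 0.0948 without the pair of libraries, above the threshold.

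Herpud1 and Sec61b departed from their list in opposite directions. Herpud1, which organises ER-associated degradation, was at 523, 448, 351 and 417 TPM at ZT4 and 739.5, 587, 709.6 and 610.1 TPM at ZT16, and the groups did not overlap. It was 1.53-fold lower at ZT4 (adjusted p = 4.06e-04), with a rise over the neighbours at ZT16 (1.6-fold, adjusted p = 1.20e-05) and 0.13 ± 0.11 on the log2 scale at ZT4 (adjusted p = 0.393). Sec61b, a subunit of the translocation channel, was at 171, 158, 151 and 149.6 TPM at ZT4 and 129, 116, 115 and 133 TPM at ZT16, with every ZT4 value above every ZT16 value. It was 1.27-fold higher at ZT4 (adjusted p = 9.24e-04) and stood above the neighbours at ZT4 alone by the test (1.39-fold, adjusted p = 3.15e-07).

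In the list of mitochondrial chaperones and proteases 1 of 12 members was a shared peak, against 1.38% of all genes. It was Hspe1, the cochaperonin of HSP60, at 415, 383, 413 and 346 TPM at ZT4 and 350.3, 359, 336 and 374 TPM at ZT16. Hspe1 stood 1.33-fold and 1.17-fold above its neighbours. The mitochondrial protease subunit Clpx went the other way, at 94.9, 95.2, 104 and 94.6 TPM at ZT4 and 127, 141, 144 and 142 TPM at ZT16 without overlap, 1.42-fold lower at ZT4 (adjusted p = 5.45e-06). Of the 8 subunits of the cytosolic chaperonin TRiC, all 8 were equal, against 79.8% of all genes. At ZT4 4 of them stood above the neighbours, against 10.3% of all genes. None of them stood above at ZT16 as scaled here, but 7 were shared peaks with median-of-ratios scaling, so their state at ZT16 depends on the scaling.

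Outside the chaperone lists, 135 of the 171 shared peaks belonged to none of the 27 gene lists. The listed ones were the 13 cytosolic and 16 ER genes, Hspe1, the 3 splicing factors Tra2a, Hnrnpc and Hnrnpm, the 2 respiratory chain subunits Ndufa5 and Uqcrb, and the collagen prolyl hydroxylase P4ha1. Tra2a stood 1.95-fold above its neighbours at ZT4 and 1.48-fold at ZT16, and P4ha1 1.55-fold and 1.42-fold. P4ha2, its paralogue, ranked among the 10 largest shared peaks. It was at 15.3, 15.1, 15.7 and 18.1 TPM at ZT4 and 18, 15.9, 15.5 and 17.2 TPM at ZT16, with overlapping groups, 1.53-fold and 1.52-fold above the neighbours (adjusted p = 3.25e-07 and 1.62e-06). In 26 of the 171 shared peaks the 4 values at one time did not overlap with those at the other, against 24.2% of all genes.

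The shared troughs were led by Cirbp, the cold-inducible RNA-binding protein gene at chr10:80165985-80172786. It was measured at 23.1, 25.9, 24.9 and 28.7 TPM at ZT4 and at 25.6, 23.5, 21.5 and 19.8 TPM at ZT16, with overlapping groups. At the neighbouring times it averaged 61.3 ± 9.93 TPM at ZT0, 50.9 ± 4.82 TPM at ZT8, 29.2 ± 6.99 TPM at ZT12 and 76.4 ± 4.08 TPM at ZT20, so ZT12 was nearly as low as the troughs. Cirbp was 2.21-fold below its neighbours at ZT4 (adjusted p = 1.05e-10) and 2.03-fold below at ZT16 (adjusted p = 9.87e-09). Rbm3, the other cold-inducible member, did not follow Cirbp, at 101, 80.3, 96.3 and 89.6 TPM at ZT4 and 65.3, 61, 59.9 and 59.9 TPM at ZT16 without overlap, 1.48-fold higher at ZT4 (adjusted p = 3.31e-05). Its ZT4 level differed from the neighbours by -0.11 ± 0.08 on the log2 scale (adjusted p = 0.352), while at ZT16 it was 1.54-fold below them (adjusted p = 4.39e-07).

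The next troughs in size were Cyp2j9, an epoxygenase of the cytochrome P450 family, the HECT-domain gene Herc3, Fam204a, the solute carrier Slc35e4 and the transcription factor Tcf24. Cyp2j9 was at 10.9, 12.3, 12.4 and 10.9 TPM at ZT4 and 8, 10.1, 8.93 and 10.3 TPM at ZT16, 1.82-fold and 1.99-fold below its neighbours. Herc3 was at 15.8, 15.1, 16.6 and 16.3 TPM and 13, 12.4, 11.8 and 12.7 TPM, 1.81-fold and 1.78-fold below. Both genes were slightly higher at ZT4, by 1.23-fold and 1.26-fold (adjusted p = 0.0427 and 0.0328), within the bound of equality. Both calls were lost without the pair of libraries (adjusted p = 0.145 and 0.0753). The Cyp2j9 call was lost when ZT4 replicate 2 or 3 or ZT16 replicate 1 or 3 alone was left out (adjusted p of 0.0946 to 0.169). The Herc3 call was lost when ZT4 replicate 1, 3 or 4 or ZT16 replicate 2 or 3 alone was left out (adjusted p of 0.0562 to 0.0845). The Cyp2j9 call was also lost with the other scalings. Slc35e4 was the most even of the group, at 8.41 ± 0.645 TPM and 8.14 ± 0.807 TPM, while Fam204a was at 20.6 ± 2.05 TPM and 17.9 ± 1.44 TPM and Tcf24 at 14.6 ± 1.09 TPM and 12 ± 0.888 TPM. The median fall of the 892 shared troughs was -0.28 at ZT4 and -0.29 at ZT16 on the log2 scale.

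Genes of basic cell functions were equal at the meal and at night. All 43 tested subunits of oxidative phosphorylation and all 33 proteasome subunits were equal within 1.5-fold, as were 52 of 53 cytosolic ribosomal proteins, all 20 cytosolic aminoacyl-tRNA synthetases, 29 of 30 SR and hnRNP splicing factors and 28 of 32 ribosome biogenesis genes, against 79.8% of all genes. Within that bound some lists still leaned to ZT4. Against 15.7% higher and 8.54% lower of all genes, the proteasome list had 20 of 33 members higher and 0 lower at ZT4. Its median was 0.15 on the log2 scale. The ribosomal proteins had 18 of 53 higher and 0 lower, with a median of 0.15. These counts moved with the scaling, to 15 and 9 with median-of-ratios and to 12 and 7 on log2(CPM + 1). Of all 12429 genes 1728 were higher at ZT4 with median-of-ratios and 1625 on log2(CPM + 1). The ribosomal protein counts under these scalings were therefore near the share of all genes. Their median was 0.14 with median-of-ratios, against 0.01 over all genes.

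Ribosome biogenesis genes had 12 members higher and 0 lower, against 15.7% and 8.54% of all genes. Nop56, a core protein of box C/D small nucleolar ribonucleoproteins, was at 31.4, 31.6, 31.6 and 36.2 TPM at ZT4 and 23.2, 23, 24.4 and 25 TPM at ZT16 without overlap, 1.35-fold higher (adjusted p = 8.59e-05). Psmd3, a lid subunit of the proteasome, was at 145, 147, 137 and 142 TPM and 114, 121, 123 and 118 TPM, also without overlap but 1.2-fold higher (adjusted p = 6.88e-04) and so equal by the bound. Sdha, the flavoprotein of respiratory complex II, lay the other way at 694 ± 28.7 TPM and 816 ± 48.5 TPM, 1.18-fold lower at ZT4 (adjusted p = 0.00348). Polyamine synthesis had 4 of 9 members higher and 0 lower, against 15.7% and 8.54% of all genes. With median-of-ratios and on log2(CPM + 1) 3 were higher. As scaled here, 3 of the 9 were shared troughs, against 7.18% of all genes. Among the higher members was the antizyme inhibitor Azin1, at 123, 126, 125 and 140.0 TPM at ZT4 and 99, 78.4, 73.1 and 89.5 TPM at ZT16, 1.52-fold higher (adjusted p = 4.27e-05). Interferon response genes had 0 calls in either direction among 20 members by limma, with 0 at an unadjusted p under 0.05 and 0 by the same test with median-of-ratios scaling. Of the 20 members 7 met the definition of equality, against 79.8% of all genes, so the others were unresolved.

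**Figure D3:**
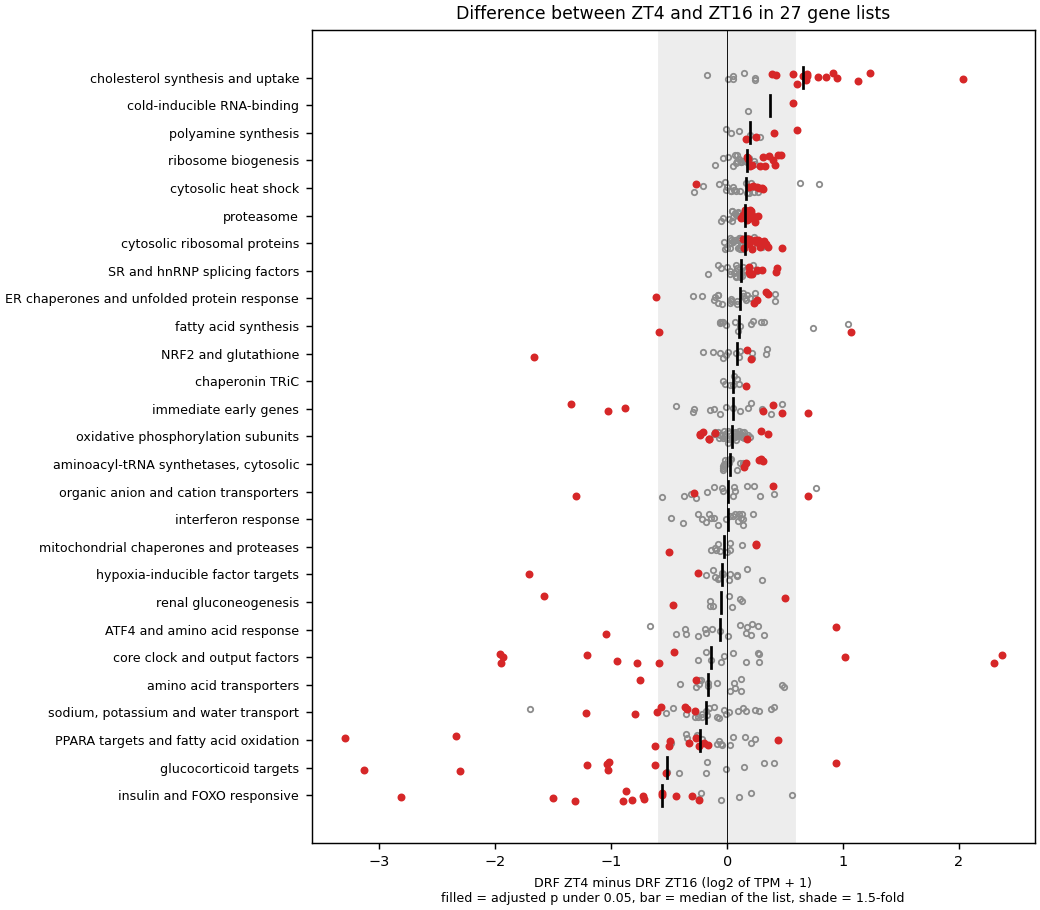
Difference between DRF ZT4 and DRF ZT16 in log2(TPM + 1) for every tested member of the 27 gene lists, 1 list per line, with filled points for members with an adjusted p under 0.05, a bar at the median of the list and shading for 1.5-fold either way. Cholesterol synthesis lies to the right with a median of 0.65, insulin and FOXO responsive genes and glucocorticoid targets lie to the left with medians of -0.56 and -0.52, and the proteasome and respiratory chain lie within the shade.

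Cholesterol synthesis and uptake, a pathway controlled by the sterol-sensing factor SREBP2, had the highest median difference of the 27 lists. Of 23 tested members, 16 were higher at ZT4 and 0 lower, against 15.7% and 8.54% of all genes. The median was 0.65 on the log2 scale against 0.02 over all genes, and 16 members were higher without the pair of libraries. Against the neighbouring times 21 of the 23 stood above at ZT4, against 10.3% of all genes. At ZT16 3 stood above and 3 below, against 5.28% and 18.8% of all genes. Msmo1, at chr8:64718139-64733792, encodes a sterol methyl oxidase. It was measured at 76.6, 88.5, 70.7 and 82.4 TPM at ZT4 and at 46.1, 36, 23.5 and 41.8 TPM at ZT16. The lowest ZT4 mouse lay well above the highest ZT16 mouse, and the difference was 2.18-fold (adjusted p = 2.25e-08). At ZT4 it stood 3.41-fold above its neighbours (adjusted p = 4.35e-16), and at ZT16 its difference from them was 0.19 ± 0.12 on the log2 scale (adjusted p = 0.253).

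Insig1, which retains SREBPs in the ER, was at 103, 130.2, 116 and 118 TPM at ZT4 and 67.4, 60.1, 51.5 and 61.9 TPM at ZT16, 1.93-fold higher (adjusted p = 2.96e-05). In Msmo1 and Insig1 alike the ZT4 and ZT16 mice were separated, and replicate 3 was lowest at ZT16. Srebf1, which encodes the SREBP1 form tied to fatty acid synthesis, was at 59.8, 61.1, 63.7 and 71.7 TPM at ZT4 and 31.8, 27.8, 25.2 and 36 TPM at ZT16, 2.1-fold higher (adjusted p = 5.70e-07). The fatty acid synthesis list did not follow. Of its 16 members 1 was higher, Srebf1 itself, 1 lower and 8 equal, against 15.7%, 8.54% and 79.8% of all genes. The lower one was Gpam, an acyltransferase of glycerolipid synthesis, at 86.3, 90.8, 111 and 116 TPM at ZT4 and 149.6, 162, 167 and 130.1 TPM at ZT16, 1.51-fold lower (adjusted p = 2.15e-04).

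Angptl8, a feeding-induced inhibitor of lipoprotein lipase that acts with other angiopoietin-like proteins, was at 29.9, 31.9, 31 and 29.5 TPM at ZT4 and 11.2, 12.5, 11.1 and 13.6 TPM at ZT16. The groups were tight and separate, the difference being 2.41-fold (adjusted p = 1.25e-04). Its fasting-induced relative Angptl4 had the reverse order and is given below. Other genes among the 10 largest rises were Fabp7, a fatty acid-binding protein, 2.62-fold higher, the adrenomedullin-related peptide gene Adm2, 2.22-fold higher, Igfbp3, a carrier of insulin-like growth factors, 2.11-fold higher, the nicotinic receptor subunit Chrna4, 2.04-fold higher, and D630023F18Rik, 2.03-fold higher. Chrna4 was at 90.4, 127, 103 and 97.4 TPM at ZT4 and 46, 55.3, 48.3 and 52.1 TPM at ZT16, and Igfbp3 at 513, 571, 678 and 320.1 TPM and 179, 297, 223 and 271 TPM. Both were separated between the times, Igfbp3 with the lowest ZT4 value in the library that stood apart. Adm2 was at 18.2, 16.1, 16.1 and 12 TPM and 4.32, 5.96, 8.84 and 7.22 TPM and Fabp7 at 27.3, 28, 25 and 18.2 TPM and 8.86, 7.97, 6.74 and 11.6 TPM, again without overlap.

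**Figure D4:**
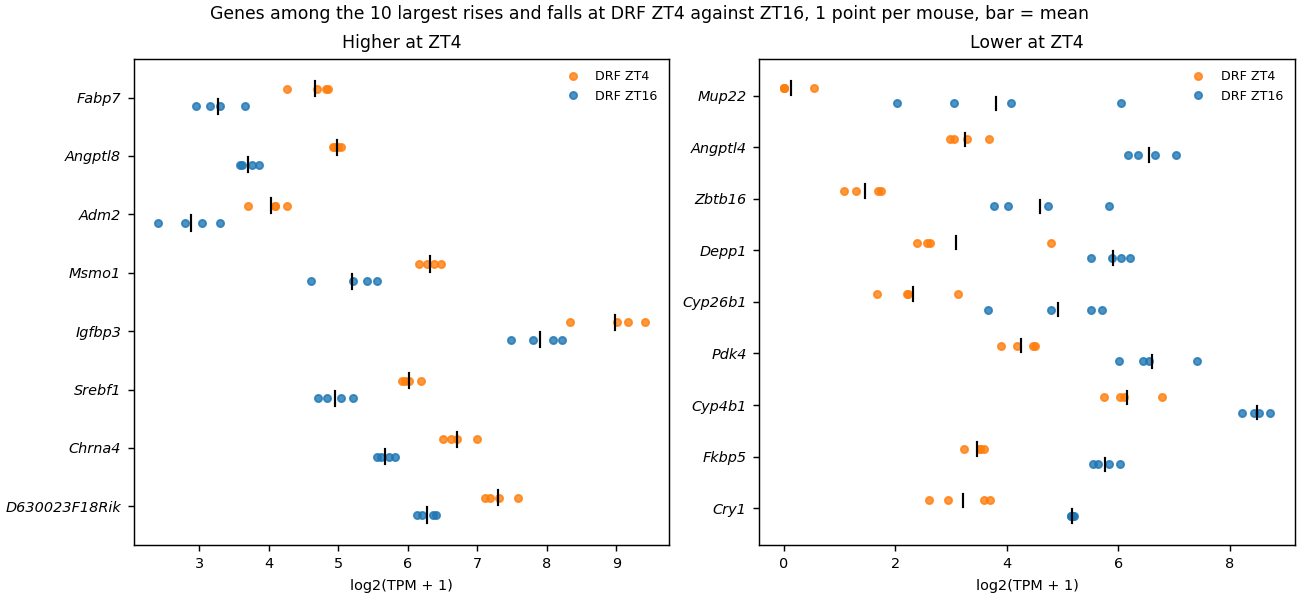
Levels as log2(TPM + 1) of genes among the 10 largest rises and the 10 largest falls at DRF ZT4 against DRF ZT16 by the naming rule, with 1 point per mouse and colours for the times. In every gene shown the 4 ZT4 points and the 4 ZT16 points do not overlap, which the naming rule required.

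On the side of the dark phase without food, part of the fasting genes stood higher at ZT16. In the PPARA and fatty acid oxidation list 10 of 26 tested members were lower at ZT4, against 8.54% of all genes, and 15 were equal, against 79.8%. Only 1 member was higher, the lipid droplet coat gene Plin2 (1.36-fold, adjusted p = 0.0119), against 15.7% of all genes. The list had a median of -0.23 on the log2 scale. Without the pair of libraries 7 were lower and 0 higher. At ZT4 21 of its members stood below the neighbouring times, against 19.6% of all genes. At ZT16 8 stood below and 0 above, against 18.8% and 5.28% of all genes. Angptl4, at chr17:33773750-33781830, an inhibitor of lipoprotein lipase induced in fasting, was measured at 6.9, 8.77, 7.32 and 11.8 TPM at ZT4 and at 100.4, 80.2, 129 and 71.2 TPM at ZT16. The highest ZT4 mouse lay far below the lowest ZT16 mouse, and the fall at ZT4 was 9.85-fold (adjusted p = 1.21e-07). Pdk4, the kinase that shuts pyruvate out of the citric acid cycle, was at 21.8, 13.8, 17.1 and 21.1 TPM and 85.6, 92.9, 168 and 63.5 TPM, 5.06-fold lower at ZT4 (adjusted p = 8.49e-07).

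Cpt1a had a smaller difference. This gene, whose enzyme admits long-chain fatty acids to the mitochondrion, was at 262, 282, 259.9 and 270.1 TPM at ZT4 and 394, 422, 511 and 341 TPM at ZT16, 1.54-fold lower at ZT4 (adjusted p = 1.11e-06). The times were separated, and replicate 3 was the highest ZT16 mouse for Angptl4, Pdk4 and Cpt1a alike.

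In the list of insulin and FOXO responsive genes, every member that differed by the test was lower at ZT4. Of 19 tested members 13 were lower at ZT4 and 0 higher, against 8.54% and 15.7% of all genes. The list had a median of -0.56 on the log2 scale, and 12 members were lower without the pair of libraries. Depp1, a FOXO target linked to autophagy, was at 4.27, 4.92, 5.17 and 26.7 TPM at ZT4 and 64.9, 58.3, 44.5 and 72.6 TPM at ZT16. Replicate 4, which stood apart, was far above the other ZT4 mice, yet it still lay below every ZT16 mouse, and the fall was 7.05-fold (adjusted p = 2.99e-05). Igfbp1, an insulin-repressed carrier of insulin-like growth factors, was at 29, 30.3, 33.4 and 29.1 TPM and 81.8, 99.7, 87.1 and 84.5 TPM, both tight, and 2.83-fold lower at ZT4 (adjusted p = 1.34e-06). Irs2, an adaptor of the insulin receptor, was at 3.79, 3.03, 3.99 and 6.57 TPM and 12.8, 11.1, 12.9 and 11 TPM, 2.49-fold lower (adjusted p = 7.43e-06), and Txnip, which restrains glucose uptake, was 1.87-fold lower at 397 ± 44.5 TPM against 751 ± 155 TPM (adjusted p = 6.44e-04).

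In renal gluconeogenesis the terminal step stood out. G6pc, the glucose-6-phosphatase, was at 950.3, 947, 832 and 952 TPM at ZT4 and 2565, 2432, 3161 and 2886 TPM at ZT16, a fall of 2.99-fold (adjusted p = 1.22e-07) with no overlap. Slc37a4, the transporter that feeds it, fell by less, from 497 ± 39 TPM to 359.6 ± 22.8 TPM, or 1.38-fold (adjusted p = 0.00439). The dicarboxylate carrier Slc25a10 was the only member that was higher at ZT4, at 481 ± 46.3 TPM against 339.8 ± 24.3 TPM, or 1.41-fold (adjusted p = 5.06e-04). Of the 10 tested members 7 were equal, against 79.8% of all genes.

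Some targets of the glucocorticoid receptor were lower at ZT4. Of 17 tested members 8 were lower at ZT4 and 1 was higher, the metallothionein Mt2 (1.91-fold, adjusted p = 0.00632), with a median of -0.52 on the log2 scale, and 7 were lower without the pair of libraries, against 8.54% lower and 15.7% higher of all genes. Fkbp5, the immunophilin by which the receptor limits itself, was at 10.4, 10.4, 11 and 8.38 TPM at ZT4 and 64.7, 45.7, 48.9 and 55.7 TPM at ZT16, 4.94-fold lower at ZT4 (adjusted p = 6.13e-08). Zbtb16, a zinc finger factor, was at 2.34, 1.13, 1.46 and 2.22 TPM and 56.1, 12.7, 25.6 and 15.2 TPM, 8.79-fold lower (adjusted p = 1.75e-06), with its highest ZT16 value in the library that stood apart. Tsc22d3, the leucine zipper known as GILZ, was at 48.3, 44.1, 34.8 and 66.7 TPM and 139, 83.6, 85.7 and 92.1 TPM, 2.05-fold lower (adjusted p = 1.71e-04), again with the highest value at each time in the libraries that stood apart. In all 3 genes no ZT4 mouse reached the level of any ZT16 mouse. Dusp1, a phosphatase that is also an immediate early gene, was 2.04-fold lower at ZT4 (adjusted p = 0.00356).

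The core clock separated the times in both directions. Of 21 tested members 3 were higher at ZT4, 8 lower and 8 equal, against 15.7%, 8.54% and 79.8% of all genes. Nr1d1, the repressor REV-ERB alpha, was at 90.5, 101, 137 and 117 TPM at ZT4 and 37.7, 21, 16.9 and 13 TPM at ZT16, 5.17-fold higher at ZT4 (adjusted p = 1.90e-09). Dbp, an output factor driven by BMAL1 and CLOCK, was at 86.7, 97.2, 80.1 and 78.4 TPM and 23.3, 18.1, 15.9 and 11.1 TPM, 4.92-fold higher (adjusted p = 7.34e-07). The third was Ciart, a repressor of the clock, 2.02-fold higher (adjusted p = 1.24e-04). Neither Nr1d1 nor Dbp gave whole reads at its annotated length, so their levels depend on the length assumed, and both were separated between the times. Cry1, a repressor of BMAL1 and CLOCK, was at 11.1, 6.68, 5.1 and 12 TPM at ZT4 and 34.5, 35.3, 34.7 and 35.8 TPM at ZT16, 3.9-fold lower at ZT4 (adjusted p = 1.90e-09) with a very tight ZT16 group. Nfil3, which opposes DBP, was at 19, 12.7, 16.3 and 18.2 TPM and 61.9, 63.4, 61.2 and 75.8 TPM, 3.83-fold lower (adjusted p = 2.94e-10). The groups did not overlap in Cry1 or Nfil3. Per1 was 2.31-fold lower at ZT4, at 13.3 ± 3.25 TPM against 32.5 ± 10.6 TPM (adjusted p = 0.00188).

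Of the immediate early genes 4 of 21 were higher and 3 lower at ZT4, shares near the 15.7% and 8.54% of all genes. Ccn2, a matricellular growth factor, was at 74, 49.7, 82.8 and 65.5 TPM at ZT4 and 157, 197, 155 and 181 TPM at ZT16, 2.55-fold lower (adjusted p = 1.12e-05), and Ier3, an apoptosis regulator, was 1.62-fold higher at 162 ± 23.7 TPM against 98.8 ± 6.19 TPM (adjusted p = 0.0284, or 0.0516 without the pair of libraries). The Ier3 call was lost when ZT4 replicate 1 or 3 or ZT16 replicate 1, 2 or 4 alone was left out (adjusted p of 0.0522 to 0.087). Myc, the growth-promoting transcription factor, was at 8.78, 7.37, 8.17 and 11.1 TPM and 18.8, 15.9, 18.3 and 15.3 TPM, 1.84-fold lower at ZT4 (adjusted p = 6.94e-06). In the amino acid response list 1 of 19 tested members was lower and 1 higher at ZT4, against 8.54% and 15.7% of all genes. The lower one was Sesn2, an inhibitor of mTORC1 signalling, by 2.06-fold (adjusted p = 2.34e-08). The higher one was the alanine aminotransferase Gpt2, by 1.92-fold (adjusted p = 1.72e-07), both without overlap. The remaining 17 members were not called. Hmox1, the haem oxygenase, stood at 77.6, 138, 66.2 and 110.2 TPM at ZT4 and 124, 335, 501 and 391 TPM at ZT16, 3.17-fold lower at ZT4 (adjusted p = 2.50e-04) although the ZT16 library that stood apart fell among the ZT4 values. Ndrg1, counted among hypoxia-inducible genes, was at 813, 1002, 940.0 and 774 TPM at ZT4 and 2372, 2915, 3497 and 2837 TPM at ZT16, 3.28-fold lower (adjusted p = 2.72e-10). In the hypoxia list 12 of 15 members were equal, a share near the 79.8% of all genes.

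In the sodium, potassium and water transport list 7 of 31 members were lower at ZT4, 0 higher and 18 equal, with 5 lower without the pair of libraries, against 8.54% lower, 15.7% higher and 79.8% equal of all genes. Scnn1a, the alpha subunit of the epithelial sodium channel, was at 206, 212, 218 and 180.2 TPM at ZT4 and 333, 312, 296 and 300.1 TPM at ZT16, 1.52-fold lower (adjusted p = 1.60e-07). Slc12a1, the sodium-potassium-chloride cotransporter of the thick ascending limb, was at 1058, 639, 919.8 and 1162 TPM and 1990.2, 1653, 1480.5 and 1358 TPM, 1.74-fold lower (adjusted p = 0.0474, or 0.101 without the pair of libraries). The Slc12a1 call was lost when ZT4 replicate 1, 2 or 3 or ZT16 replicate 1, 2 or 3 alone was left out (adjusted p of 0.0568 to 0.184). Beside this, 5 thick ascending limb markers, including Slc12a1, summed to 4928 to 7166 TPM at ZT4 and 8725 to 9655 TPM at ZT16. The 2 markers lower by the test were Slc12a1 itself and Egf. Umod, Cldn16 and Kcnj1 differed by -0.52, 0.03 and -0.15 on the log2 scale and were not called (adjusted p = 0.0646, 0.864 and 0.333). The part of segment content in the result was not tested. Slc22a7, an organic anion transporter, was at 159, 173, 129 and 196 TPM and 481, 469.7, 289.9 and 404 TPM, 2.47-fold lower (adjusted p = 0.00131), while the urate transporter Slc22a12 was 1.63-fold higher at ZT4, at 1453 ± 105 TPM against 899 ± 129 TPM (adjusted p = 5.64e-06). The taurine transporter Slc6a6 was at 133, 138, 151 and 144 TPM and 239, 227, 257 and 234 TPM, 1.68-fold lower (adjusted p = 1.83e-06), again without overlap.

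Other genes among the 10 largest falls were cytochromes and a urinary protein. Cyp4b1, a fatty acid and xenobiotic hydroxylase, was at 52.3, 67.4, 109 and 64.5 TPM at ZT4 and 346, 367, 421 and 297 TPM at ZT16, 4.98-fold lower (adjusted p = 2.30e-05), and Cyp26b1, which clears retinoic acid, was at 2.19, 3.72, 3.64 and 7.7 TPM and 44.6, 51.4, 26.8 and 11.6 TPM, 6.09-fold lower (adjusted p = 6.36e-04). Mup22, a major urinary protein of a family of near-identical copies, was at 0 in 3 of the 4 ZT4 mice and at 3.09, 7.25, 15.8 and 65 TPM at ZT16, so its level is uncertain and no fold is given. The Mup22 call was lost when ZT4 replicate 2, 3 or 4 or ZT16 replicate 3 or 4 alone was left out (adjusted p of 0.0517 to 0.125). Beside it, the summed level of 7 liver markers was 469.9 to 656 TPM at ZT4 and 739 to 1043 TPM at ZT16. Of 6 tested markers 2 were lower by the test, Cyp2e1 and Fgb. Alb, Apoa1, Apoa2 and Ttr differed by -1.55, -1.09, -0.38 and -0.09 on the log2 scale and were not called (adjusted p = 0.0614, 0.252, 0.428 and 0.851). The part of liver markers in the result was not tested.

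Under NRF the same pair of clock times was sampled with food in the dark phase, so that ZT4 lay without food and ZT16 with food. Between NRF ZT4 and NRF ZT16, 2596 genes were higher at ZT4 (20.9%) and 1502 lower (12.1%), with 63.3% of the called genes higher, or 49.95% with median-of-ratios, 47.9% on log2(CPM + 1) and 46.8% on the deposited values taken as linear. Of 1407 genes that differed between the times under both regimens, 904 had the same sign, 674 higher and 230 lower at ZT4, and 503 had opposite signs, 246 higher and 257 lower at ZT4 under DRF. The difference between the times depended on the regimen, by the interaction in the same fit, in 2866 genes, or 23.1%, including all 503 genes with opposite signs and 114 of the 904 with the same sign. A further 1603 genes differed under DRF alone, in 716 of which the interaction passed the test.

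Chaperone genes differed between the times under NRF. There 25 of 27 cytosolic heat shock genes and 25 of 28 ER genes were lower at ZT4 than at ZT16 and none was higher, against 12.1% of all genes lower, and the interaction passed in 23 and 23 of them, against 23.1% of all. Hspa8 stood at 1528, 1799.9, 1744 and 1673 TPM at NRF ZT4 and 4826, 5041, 5436 and 5774 TPM at NRF ZT16, so that both DRF groups lay above the NRF ZT4 mice and the DRF ZT4 mean of 4635 ± 254 TPM lay near the NRF ZT16 mean of 5269 ± 421 TPM. Creld2 was at 37.7, 50.6, 49.5 and 49.9 TPM and 202, 218, 235 and 248 TPM, and Hspa5 averaged 349.9 ± 54.2 TPM and 1267 ± 169 TPM. For these 3 genes the DRF means at either time lay between the NRF ZT4 mean and the NRF ZT16 mean. Of the 171 shared peaks 134 were lower at ZT4 under NRF, 4 were higher and 33 were not called. Of the 892 shared troughs 653 were higher at ZT4 under NRF, Cirbp among them at 67.6 ± 4.69 TPM against 18 ± 0.988 TPM, while 4 were lower and 235 were not called.

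Clock and glucocorticoid genes led those with the same order of times under both regimens. Among the 5 genes with the largest difference of the same sign were Fkbp5, Cry1, Nfil3 and Zbtb16, which were lower at ZT4. Under NRF Nfil3 stood at 14 ± 3.57 TPM and 51.1 ± 11.6 TPM, against 16.5 ± 2.8 TPM and 65.6 ± 6.88 TPM under DRF, with an interaction of -0.13 ± 0.27 on the log2 scale (adjusted p = 0.79), while that of Fkbp5 was -0.33 ± 0.40 (adjusted p = 0.611). Cry1 kept its sign but not its size, falling at ZT4 by 10.4-fold under NRF and 3.9-fold under DRF (interaction 1.42 ± 0.30, adjusted p = 2.98e-04). Nr1d1 was 6.15-fold higher at ZT4 under NRF (adjusted p = 2.34e-11). Dbp differed by -0.59 ± 0.33 under NRF (adjusted p = 0.166) against 2.30 ± 0.33 under DRF, with an interaction at an adjusted p of 4.34e-06.

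Genes of feeding and fasting led those with the reverse order. Among the 5 genes with the largest differences of opposite sign were Depp1, the lectin-like receptor gene Clec2h, Pdk4 and Igfbp1. Igfbp1 stood at 97.3, 113, 132 and 79.3 TPM at NRF ZT4 and 28.4, 21.8, 25.4 and 21.8 TPM at NRF ZT16, the reverse order of its DRF values, with an interaction of -3.56 ± 0.31 on the log2 scale (adjusted p = 4.72e-12). Depp1 was at 22.9, 33.8, 63.3 and 43.9 TPM and 3.61, 18.3, 7.56 and 5.24 TPM, higher at ZT4 by 4.74-fold under NRF (adjusted p = 3.42e-04) where it was lower under DRF. Pdk4 was at 96.7 ± 58.9 TPM and 28.9 ± 7.81 TPM (adjusted p = 3.40e-04) and Clec2h at 116 ± 48.1 TPM and 38.5 ± 13.7 TPM (adjusted p = 6.27e-05).

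In the cholesterol list 4 of 23 members were higher and 7 lower at ZT4 under NRF, against 20.9% and 12.1% of all genes. The interaction passed in 13 of 23, against 23.1% of all. In the insulin and FOXO list 5 of 19 members were higher at ZT4 under NRF, near the 20.9% of all genes, and 0 were lower, against 12.1%. The interaction passed in 12 of these 19 members, against 23.1% of all. The glucocorticoid targets had 3 higher and 6 lower under NRF, against 20.9% and 12.1% of all genes, with the interaction passing in 3 of 17, against 23.1% of all. Tsc22d3 among these fell more at ZT4 under NRF than under DRF, by 4.73-fold against 2.05-fold (interaction adjusted p = 0.00163). The plot of both regimens sets these genes side by side.

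**Figure D5:**
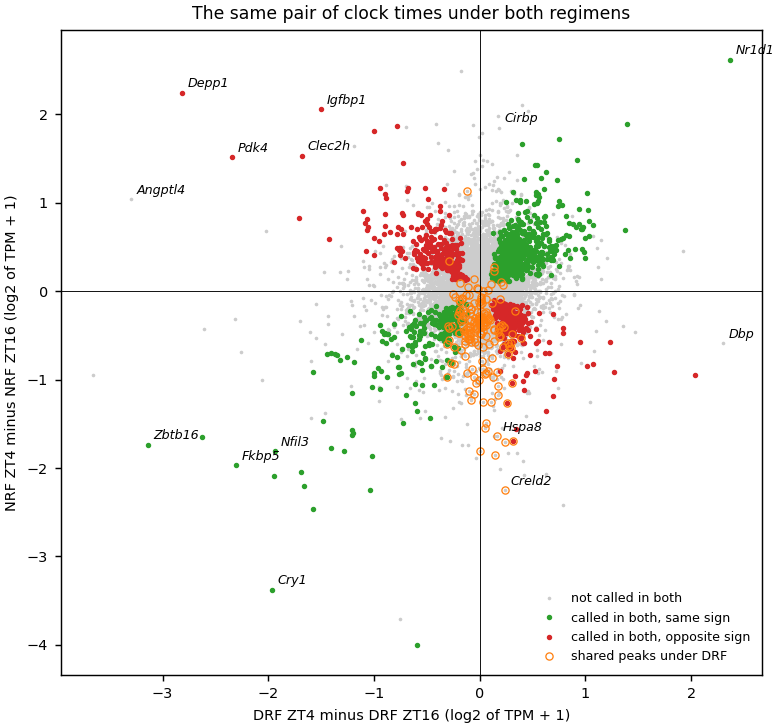
Difference between ZT4 and ZT16 in log2(TPM + 1) under DRF on the horizontal axis and under NRF on the vertical axis, 1 point per tested gene, with named genes marked. Nfil3 and Fkbp5 lie low on both axes, Igfbp1, Depp1 and Pdk4 lie low under DRF and high under NRF, and the chaperone genes lie near 0 under DRF and low under NRF.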

How the data were processed

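Kidney polyA RNA of 56 mice (7 times, 2 regimens, 4 mice each) was sequenced as paired-end reads. The authors deposited 1 table of 17027 genes labelled TPM, whose values are used here as a score: they behave as log2(CPM + 1) divided by gene length. The submitters' processing notes name HISAT2, Bowtie2, RSEM, mm10 and GRCm38.p6. Lengths from the GENCODE annotation (14411 genes) or a search (860 genes) turned the scores back into reads, whole within 0.1 in 98.89% of values over 89.7% of genes, and linear TPM was computed from these. Another 1454 genes gave fractional reads, of which 48 list members were kept at annotated length, and 302 genes had no length. The rebuilt depth was 21.6 M to 24.3 M reads per library, so counting error is small except at low levels.

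Differences were tested in 1 limma (3.58.1, R 4.3.3) fit with a trended prior over all 14 groups, on log2(TPM + 1) of 12429 genes with a mean of at least 1 TPM, with Benjamini-Hochberg adjustment. Replicates are separate libraries per group, and nothing states further how the animals were paired or batched, so p-values measure the spread between these libraries. Members and gene lists were chosen with earlier results of these data known. Named genes had a mean of at least 10 TPM and whole reads: the 10 largest rises and 10 largest falls without overlap, the 10 shared peaks and 6 shared troughs with the largest smaller contrast, the 5 largest differences of the same and of opposite sign under both regimens, and up to 4 genes per list by difference (6 by rise over the neighbours for chaperones). Some genes this rule picks are not reported here. Genes outside this rule, the urothelium list and the promoter motifs were chosen after values were seen. The fit was checked on simulated data, where 2-fold changes were recovered more often than 1.5-fold ones. Alternatives were other scalings, pseudocounts, filters, limma-voom on the rebuilt reads, a replicate block and each library left out.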

Additional observations from a re-analysis of the deposited data

Results flagged for a closer look

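In 11 of 154 groups of 4 mice for the 77 genes compared, 1 mouse lay far from the other 3, with a gap over the group's range above Dixon's critical value for 4 samples, where chance alone gives about 1 in 20 groups. At DRF ZT16 the ratio was 0.963 for Hspa1a, 0.981 for Creld2, 0.882 for Hspa5 and 0.908 for Hyou1, and in each of these the outlying mouse was replicate 1, one of the libraries that stood apart, at the top. At DRF ZT4 it was 0.935 for Clpx, 1.0 for Mup22, 0.905 for Depp1, 0.96 for G6pc and 0.948 for Nop56, and at DRF ZT16 it was 0.831 for Clpx and 0.839 for Nfil3. Depp1 and Nop56 at ZT4 were highest in replicate 4, the other library that stood apart. Among 28 groups of summed markers 4 were of this kind, with ratios of 0.889 at ZT4 and 0.874 at ZT16 for skeletal muscle, 0.879 at ZT16 for red blood cells and 0.896 at ZT4 for the collecting duct. All these ratios are on log2(TPM + 1). On that scale the urothelium sums were not flagged. In TPM they were 828 and 448 in the libraries that stood apart, against 6.34 to 43.8 in the others. The skeletal muscle sums were 3.83 to 5.95 TPM in these 8 libraries, close to 0.

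The difference between ZT4 and ZT16 depended on the regimen in 53 of these genes by the interaction test. The values that follow are the log2 difference under DRF minus that under NRF. Chaperones had positive values, in the cytosol for Hspa8 (1.81), Chordc1 (1.81), Hsph1 (2.198), Stip1 (1.28), Dnaja1 (2.002), Hspa1a (2.696), Hspa1b (3.21), Cacybp (1.34) and Ahsa1 (0.99), in the ER for Creld2 (2.49), Manf (2.49), Hspa5 (1.997), Sdf2l1 (2.33), Hyou1 (1.94), Pdia4 (1.35), Herpud1 (0.66) and Sec61b (0.37), and in the mitochondrion for Hspe1 (0.56). The mitochondrial protease subunit Clpx had a negative value (-1.07), and the collagen hydroxylase P4ha2 a positive one (1.11). Of the genes low at both DRF times, negative values were found for Cirbp (-1.67), Cyp2j9 (-0.505) and Slc35e4 (-0.52). Rbm3, which was low against its neighbours at ZT16 and not by the test at ZT4, had a positive value (0.82). Genes of lipid synthesis and uptake were positive for Angptl8 (2.19), Msmo1 (1.35), Srebf1 (1.89) and Insig1 (1.100) and negative for Gpam (-0.97). Of the genes of fasting, negative values were found for Angptl4 (-4.34), Depp1 (-5.06), Pdk4 (-3.85), Igfbp1 (-3.56), Irs2 (-1.83), Txnip (-2.005) and Cpt1a (-1.04). In the clock and glucocorticoid lists the values were positive for Cry1 (1.42), Dbp (2.89) and Tsc22d3 (1.204). Among transport, amino acid and growth genes they were positive for Slc25a10 (0.44), Gpt2 (0.78), Ier3 (1.69), Azin1 (0.76), Nop56 (0.86) and Adm2 (1.01) and negative for Ndrg1 (-2.55), Sesn2 (-1.11), Slc6a6 (-0.75), Myc (-1.17), Sdha (-0.27), Cyp26b1 (-2.18), Cyp4b1 (-1.9998) and Clec2h (-3.21).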

How the results depend on the processing

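Of 77 genes compared, none that differed between DRF ZT4 and ZT16 changed sign under any alternative run, while 5 that did not differ by the test did so in at least 1, Hsph1, Stip1, Chordc1, Ahsa1 and Slc35e4. The share of called genes that were higher at ZT4 moved with the scaling, from 64.8% to 53.2% on log2(CPM + 1) and 48.2% on the deposited values. The 3010 genes that differed between DRF ZT4 and ZT16 became 425 at 1.5-fold or more, and the 9919 equal genes became 5218 with a tighter bound. Scaling moved the shared classes. Shared peaks numbered 441 with median-of-ratios, 439 on log2(CPM + 1), 317 with the deposited values as linear TPM and 110 with the tighter bound, and shared troughs 501, 491 and 488 under the first 3 of these. Under NRF 4098 genes differed, 788 at 1.5-fold or more and 1921 where only the groups compared entered the fit, with fewer samples to estimate the spread. The interaction was 1033 genes at 1.5-fold or more. Leaving out each library in turn gave 2439 to 3275 genes for DRF ZT4 against ZT16, 9389 to 9737 equal genes, 117 to 159 shared peaks, 690 to 917 shared troughs, 3583 to 4235 genes under NRF and 2509 to 3141 interactions. An alternative chosen after seeing the data left out DRF ZT4 replicate 4 and DRF ZT16 replicate 1 together and gave 2512, 9363, 122, 871 and 2624 for the classes other than NRF. Of the genes compared, 1 lost its call with median-of-ratios, 2 on log2(CPM + 1), 4 on the deposited values and 5 without both libraries.

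The replicate numbers did not pair the samples: deviations of same-numbered ZT4 and ZT16 libraries correlated at -0.399, 0.272, 0.177 and -0.508. With the replicate number as a block, 3002 genes differed under DRF, 4091 under NRF and 2841 by interaction, with 9921 equal genes, 175 shared peaks and 888 shared troughs.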
